A study of Homo sapiens with 12 samples.

Results

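The genes described here are the protein-coding genes of human chromosome 19 whose symbol starts with ZNF, 250 of the 20050 protein-coding genes that the RefSeq annotation of GRCh38.p14 places on a chromosome. The rule uses chromosome, biotype and symbol and no measured value, although the family was proposed with earlier results of these data known. The mark measured is ac4C, cytidine that carries an acetyl group at N4, mapped along the RNA of RBE, a human line of intrahepatic cholangiocarcinoma. RBE cells with a hairpin against NAT10 (sh-NAT10), the enzyme that acetylates cytidine in RNA, were set against RBE cells with a control hairpin (sh-NC). For the knockdown the labels describe lentiviral transduction, puromycin selection and expansion of resistant colonies; they do not describe the control virus, name no second hairpin or line, and do not say whether replicates came from separate cultures. RNA fragments were pulled down with antibodies to ac4C, and each of sh-NAT10 IP, sh-NAT10 input, sh-NC IP and sh-NC input has 3 libraries, 12 together. The authors deposited 1 peak list per arm, called here the knockdown list and the control list, and gene values are the numbers of peaks that overlap the gene span by at least 1 bp on either strand.

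Most zinc finger proteins encoded on chromosome 19 pair a KRAB box with a long array of zinc fingers. The array binds DNA, often within transposable elements, and the KRAB box recruits the corepressor TRIM28, which brings histone methyltransferases such as SETDB1 and so silences the bound element. The genes arose by repeated tandem duplication, lie side by side in clusters, and usually encode the whole finger array in the last exon, so their transcripts resemble each other closely. Reads from such copies can be assigned to the wrong gene, and each count for a single gene is uncertain for that reason.

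The knockdown list had 28047 peaks and the control list 34365, a ratio of 0.816, and on chromosome 19 the numbers were 1898 and 2118. Replicates are not separate in the lists, so the spread between them cannot be measured, no test between the arms was possible and no p-value is given. Intervals are 95% Wilson intervals, cover counting error only, and treat neighbouring peaks as independent. The depth behind the lists is unknown. RNA levels are not in the lists, so fewer peaks on a gene and less of its RNA cannot be told apart. The second list was taken as that of the knockdown because the name of the first fits only the control titles, and NAT10 RNA was not measured here to check this. Biliary keratins and other biliary markers fixed for the check of cell identity had peaks on 5 of 6 genes in both lists, with 31 peaks in each, and EPCAM had none in either. Hepatocyte markers had 0 knockdown and 2 control peaks, with APOA1 at 0 in both lists, immune markers 6 and 6, and fibroblast markers 1 and 1, with DCN at 0 in both. Of 4 neuronal markers, 3 had a knockdown peak and 4 a control peak, with 6 and 81 peaks. None of the 4 was at 0 in the control list, GABRB2 was at 0 in the knockdown list, and the part of such transcripts in the ZNF result was not tested.

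Chromosome 19 ZNF genes carried far fewer peaks in the knockdown list than in the control list. A total of 67 knockdown peaks overlapped a ZNF gene of chromosome 19, against 238 control peaks, a ratio of 0.282 (95% interval 0.215 to 0.369). At least 1 knockdown peak was found on 43 of the 250 genes, where 42% of all protein-coding genes had one, and at least 1 control peak on 130, where the share of all protein-coding genes was 47.1%. Thus the family was covered in the control list about as often as other genes and in the knockdown list less often. Of the 130 genes that the control list covered, 94 lacked a peak in the knockdown list (72.3%, 64.1 to 79.3), beside 26.3% over all protein-coding genes. Of the 43 covered by the knockdown list, 7 lacked a control peak (16.3%, 8.12 to 30), beside 17.4% over all protein-coding genes. That share was 30.2% with lists of equal length (24.2% over all protein-coding genes) and 41.7%, 5 of 12 genes, with scores of 20 or more (47.7% over all). Among the 137 genes with any peak, 104 had fewer knockdown than control peaks (46.1% of all protein-coding genes with any peak), 12 had more (33.3% of all) and 21 had equal numbers. The median difference, knockdown minus control, was -1 peak for these 137 genes and 0 for all protein-coding genes with any peak. The remaining 113 genes had no peak in either list.

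Most of these peaks could be placed on a single gene, and the difference was as large for them. Of the 67 knockdown peaks 37 overlapped no other annotated gene, and of the 238 control peaks 156 did, a ratio of 0.237 (0.166 to 0.339). With these peaks 25 ZNF genes had a knockdown peak (32.8% of all protein-coding genes) and 88 a control peak (36.9% of all). Of the 88, 69 lacked a knockdown peak (78.4%, 68.7 to 85.7), beside 28.9% of all protein-coding genes, and of the 25, 6 had no control peak (24%, 11.5 to 43.4), beside 20% of all. Fewer knockdown than control peaks were found on 75 genes (46.6% of all with any such peak) and more on 8 (35.2% of all). A further 43 members had peaks only where another gene overlaps, among them ZNF433, named after its values were seen, with 0 knockdown and 8 control peaks that all overlap a second gene. In all, 34 members overlap another member, and the list includes readthrough transcripts such as ZNF559-ZNF177.

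**Figure D1:**
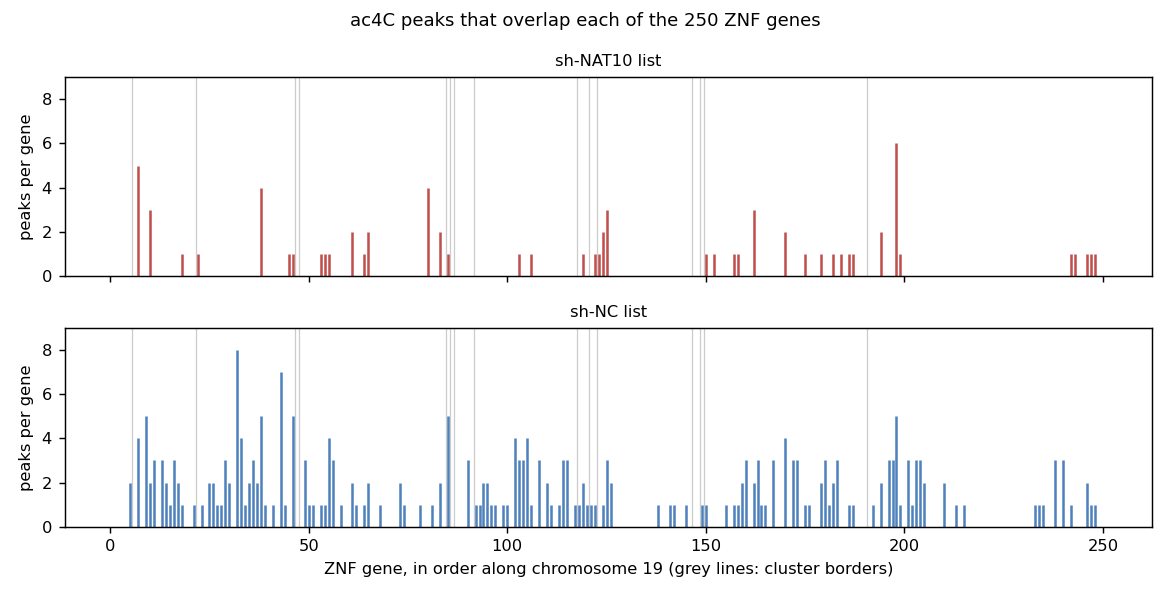
Number of ac4C peaks that overlap each of the 250 ZNF genes (y axis), with the genes in order along chromosome 19 (x axis), in the sh-NAT10 list above and the sh-NC list below. Grey lines are cluster borders, lines of height 0 are genes without a peak, and the highest values are 6 in the sh-NAT10 list (ZNF787) and 8 in the sh-NC list (ZNF433).

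The same counts were set beside those of other gene groups, as a description with no test. Other protein-coding genes of chromosome 19 (1201 genes) had 1769 knockdown and 1805 control peaks, a ratio of 0.980 (0.918 to 1.05), and 15.6% of the 507 covered by the control list lacked a knockdown peak. ZNF genes of the other chromosomes (268 genes) had 237 knockdown and 378 control peaks, a ratio of 0.627 (0.533 to 0.737), and 45.2% (37.0 to 53.6) of the 135 covered by the control list lacked a knockdown peak. The 149 other protein-coding genes that lie inside the large ZNF clusters had 148 and 171 peaks, a ratio of 0.865 (0.695 to 1.08). In peaks that overlap 1 gene only, these neighbours had 132 knockdown and 143 control peaks. Without other zinc finger symbols (such as ZFP or ZSCAN), 134 neighbours had 144 and 154 peaks, counting all peaks, a ratio of 0.935 (0.745 to 1.17). The neighbours were spread unevenly, with 53 in the cluster from ZNF557 to ZNF846. The cluster from ZNF565 to ZNF573 held 4, with 0 knockdown and 3 control peaks, and that from ZNF653 to ZNF791 held 4, with 2 and 2. So among these gene groups the ratio was lowest in the chromosome 19 ZNF genes, with ZNF genes elsewhere between them and the neighbouring genes.

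**Figure D2:**
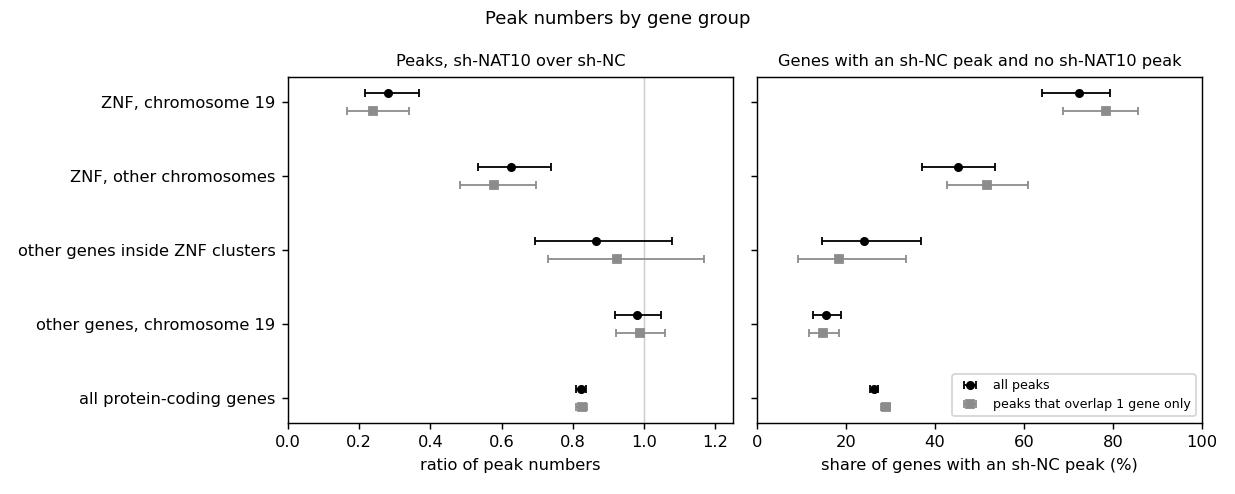
Ratio of peak numbers, sh-NAT10 over sh-NC (left), and the share of genes with an sh-NC peak that had no sh-NAT10 peak (right), by gene group. Points are counts from the peak lists (black, all peaks; grey, peaks that overlap 1 gene only), bars are 95% Wilson intervals for counting error, and the chromosome 19 ZNF genes lie lowest on the left (0.282) and highest on the right (72.3%).

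Along the chromosome the 250 genes fell into 16 clusters when a gap of 1 Mb or more separated them, 4 of them single genes. The 7 clusters with at least 10 genes held 229 of the 250. In 13 clusters the knockdown list had fewer peaks than the control list, 3 had no peaks in either list, and none had more knockdown peaks. Among the 7 large clusters the ratio of knockdown to control peaks ran between 0.0645 and 0.556. In every smaller cluster with peaks the counts were low and the interval of this ratio includes equal numbers.

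**Figure D3:**
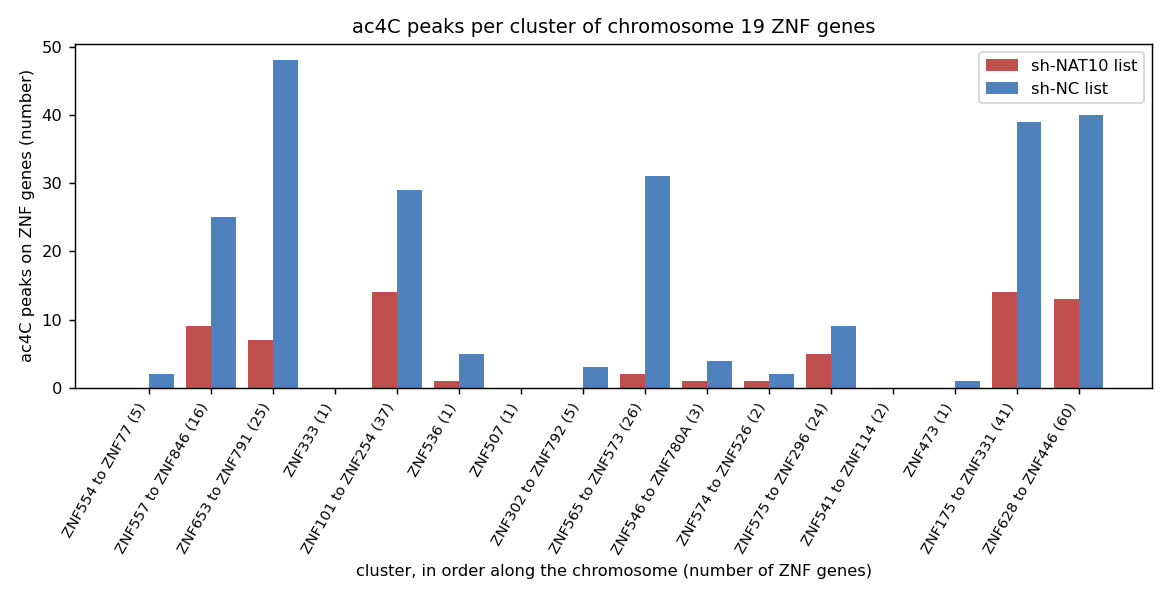
Number of ac4C peaks on ZNF genes (y axis) in each of the 16 clusters in order along chromosome 19, with the number of ZNF genes in brackets, in the sh-NAT10 list (red, left bar) and the sh-NC list (blue, right bar). Each of the 13 clusters with peaks has the taller bar in the sh-NC list, and the widest gap is 7 against 48 peaks from ZNF653 to ZNF791.

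Among these 7, the lowest ratio was in the cluster from ZNF565 to ZNF573 (chromosome 19, 36182060 to 37779586, hg38). Its 26 genes had 2 knockdown and 31 control peaks, a ratio of 0.0645 (0.0171 to 0.244), and 18 of the 20 genes covered in the control list lacked a knockdown peak. ZNF420, a KRAB protein known as a regulator of p53, had 0 knockdown and 4 control peaks. ZNF383 had 0 and 3, which lay within 350 bp, at 37242922 to 37243271, with scores of 10.26, 21.18 and 10.22. ZNF527 had 0 and 2, with a highest control score of 35.57. ZNF382, a KRAB repressor, had 0 knockdown peaks and 1 control peak, a span of 15412 bp. The cluster's 2 knockdown peaks were on ZNF829, which had 1 knockdown and 3 control peaks, and on ZNF585A, which had 1 of each. Neither overlapped a control peak, and the ZNF829 control peaks are all shared with the overlapping gene ZNF345. The ZNF585A control peak is a 30399 bp span with a score of 0 that ends at 37145541, while the gene starts at 37145540. It is also 1 of the 4 control peaks of ZNF420, where it lies on the opposite strand. The ZNF585A knockdown peak had a score of 1.91, below the lower edge of 10 where most scores begin.

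The cluster from ZNF653 to ZNF791 (11483429 to 12633834) had 7 knockdown and 48 control peaks on 25 genes, a ratio of 0.146 (0.0673 to 0.316). Of its 19 genes covered in the control list 17 lacked a knockdown peak. ZNF709 had 0 knockdown peaks and 7 control peaks, the largest difference of any member in peaks that overlap 1 gene only. Of those 7 control peaks 6 were narrow and lay within 1175 bp (12464209 to 12465383) on the strand of the gene, with scores between 10.51 and 25.78. ZNF791 had 1 knockdown and 5 control peaks. Its 1 shared site, 75 bp from 12628899 to 12628973, had a score of 16.87 in the knockdown list and 93.02 in the control list, the highest control score on any member in a peak confined to 1 gene. The 3 control peaks just upstream of it, from 12628149 to 12628623, had no knockdown counterpart. The fifth control peak, 11036 bp on the opposite strand, overlaps a second gene. ZNF44 had 4 knockdown and 5 control peaks, each of which met a peak of the other list and overlaps a second gene. Its widest peak, 21464 bp from 12250355 to 12271818, had a score of 290.7 in the knockdown list and 212.1 in the control list. ZNF490 had 1 knockdown peak and 0 control peaks.

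Differences between clusters were not tested. The cluster from ZNF101 to ZNF254 (19668153 to 24129968), next to the centromere and known for primate-specific genes, had 14 knockdown and 29 control peaks on 37 genes, a ratio of 0.483 (0.258 to 0.904), and 18 genes had no peak. ZNF14 had 0 knockdown and 3 control peaks, all narrow and within 550 bp. ZNF675, a KRAB protein reported to bind the signalling adaptor TRAF6, had 0 knockdown peaks and 1 control peak of 100 bp with a score of 36.30. ZNF486 had 1 knockdown and 4 control peaks, all of which overlap other genes. ZNF93, which represses LINE elements, had no peak in either list.

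ZNF91, a repressor of SVA elements, was the exception of this cluster, with 4 knockdown and 0 control peaks. ZNF91 is annotated on the minus strand, and its 3 narrow knockdown peaks, from 23323993 to 23324142, from 23324168 to 23324192 and from 23328593 to 23328617, are on the plus strand. Their scores were 10.91, 10.32 and 10.84, close to the lower edge. The fourth, on the minus strand, is a span of 27233 bp that overlaps 4 genes, with a score of 21.10. No knockdown peak was therefore placed on ZNF91 alone on its own strand.

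On the long arm, the cluster from ZNF175 to ZNF331 (51571283 to 53580269) had 14 knockdown and 39 control peaks on 41 genes, a ratio of 0.359 (0.197 to 0.655). ZNF610 had 0 knockdown and 3 control peaks, with scores of 10.69, 38.51 and 14.21 between 52366031 and 52366605. ZNF616 had 0 knockdown and 2 control peaks. ZNF480 had 3 knockdown and 2 control peaks, of which a 3195 bp span had the same ends in both lists, with a score of 22.96 in the knockdown and 17.96 in the control list. ZNF83 had 2 knockdown and 4 control peaks, and both knockdown peaks had the ends of a control peak. ZNF845 had 1 knockdown peak, 25 bp wide with a score of 10.68, and 0 control peaks. ZNF350, a partner of BRCA1, and ZNF331, an imprinted gene, had no peak in either list. This cluster held 10 of the 36 genes with a peak in both lists.

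The cluster nearest the end of the long arm, from ZNF628 to ZNF446 (55476617 to 58489533), had 13 knockdown and 40 control peaks on 60 genes, a ratio of 0.325 (0.176 to 0.602), and 36 genes had no peak. ZNF583 and ZNF471 each had 0 knockdown and 3 control peaks. Those of ZNF583 lay within 850 bp (56423408 to 56424257), and those of ZNF471 between 56524821 and 56525645. ZNF329 had 0 knockdown and 3 control peaks, 1 of them a 9905 bp span and 1 on the opposite strand. ZNF787 stood apart from these genes, with 6 knockdown and 5 control peaks. Each of the 5 control peaks on ZNF787 overlapped a knockdown peak, and its highest scoring narrow peak, 125 bp from 56103123 to 56103247, had a score of 39.68 in the knockdown and 25.51 in the control list. ZNF274, which recruits SETDB1 to the ends of other zinc finger genes, and ZNF304 had no peak in either list.

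The remaining large clusters had the same direction. From ZNF557 to ZNF846 (7069703 to 9786160) 16 genes had 9 knockdown and 25 control peaks, a ratio of 0.360 (0.171 to 0.758). ZNF558 had 0 knockdown and 5 control peaks there. ZNF317 had 3 knockdown and 2 control peaks, with 1 site in common. ZNF358 had 5 and 4, all shared with an overlapping gene. From ZNF575 to ZNF296 (43530835 to 45076478) 24 genes had 5 knockdown and 9 control peaks, a ratio of 0.556 (0.195 to 1.58), an interval that includes equal numbers, and 16 genes had no peak. ZNF428 had 3 peaks in each list and ZNF576 had 2 knockdown peaks and 1 control peak. In each list 1 of these is a 10894 bp span counted for both genes, on the strand opposite to ZNF428. It starts at 43601152, while ZNF576 ends at 43601157, and it is the only control peak of ZNF576.

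The 9 small clusters held 21 genes. ZNF536, a large gene expressed in neurons, had 1 knockdown and 5 control peaks, 4 of them spans of 67205 to 89139 bp. The knockdown peak had the same ends as the control span of 71029 bp. ZNF30 had 0 knockdown and 3 control peaks between 34943901 and 34944625, ZNF77 had 0 and 2, ZNF780B had 1 and 2, and ZNF526 had 1 and 1. The ZNF526 peak was the same 16829 bp span in both lists, with a score of 0, on the opposite strand and over 3 genes. ZNF473, a component of the histone pre-mRNA processing machinery, had 0 and 1, with a score of 0.274. ZNF541, a testis gene, had none in either list.

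Control peaks on these genes were mostly short, and the ratio of knockdown to control peaks was lowest among the shortest. Among peaks up to 100 bp wide, 29 knockdown and 151 control peaks overlapped a ZNF gene of chromosome 19, a ratio of 0.192 (0.129 to 0.285). Above 100 and up to 1000 bp there were 13 and 41, and above 1000 bp 25 and 46, a ratio of 0.543 (0.336 to 0.880). Other genes of chromosome 19 had 699 knockdown and 695 control peaks up to 100 bp wide. The median width on ZNF genes was 150 bp in the knockdown list and 75 bp in the control list, against 175 and 184 bp on other genes of the chromosome. Widths were multiples of 25 bp for 55.2% of the knockdown and 77.3% of the control peaks on ZNF genes. Peaks over 1000 bp are single blocks that can include introns.

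Position along the gene was taken from peaks up to 1000 bp wide that overlap 1 gene only, for the 219 ZNF genes whose strand the RefSeq table gives. Of 24 such knockdown peaks 21 lay on the strand of the gene (87.5%, 69.0 to 95.7), and of 123 control peaks 121 did (98.4%, 94.3 to 99.6). The 3 knockdown peaks on the opposite strand are those of ZNF91. The last 30% of the span held 17 of the 21 same-strand knockdown peaks (81%, 60 to 92.3) and 102 of the 121 same-strand control peaks (84.3%, 76.8 to 89.7). On other genes of chromosome 19 the shares were 55.6% of 946 knockdown and 55.6% of 948 control peaks. In that last part of the span the ZNF genes had a ratio of 0.167 (0.100 to 0.277), near the 0.174 of all their narrow same-strand peaks. Other genes of the chromosome had 526 knockdown and 527 control peaks there. ZNF genes of other chromosomes had a ratio of 0.363 there, against 0.481 for all their narrow same-strand peaks. Over all protein-coding genes these ratios were 0.711 and 0.801. The median distance from the peak to the annotated end of the gene was 3812 bp in the knockdown and 3450 bp in the control list. Exons are not in the annotation used here, so whether these peaks lie in the exon of the finger array was not tested.

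**Figure D4:**
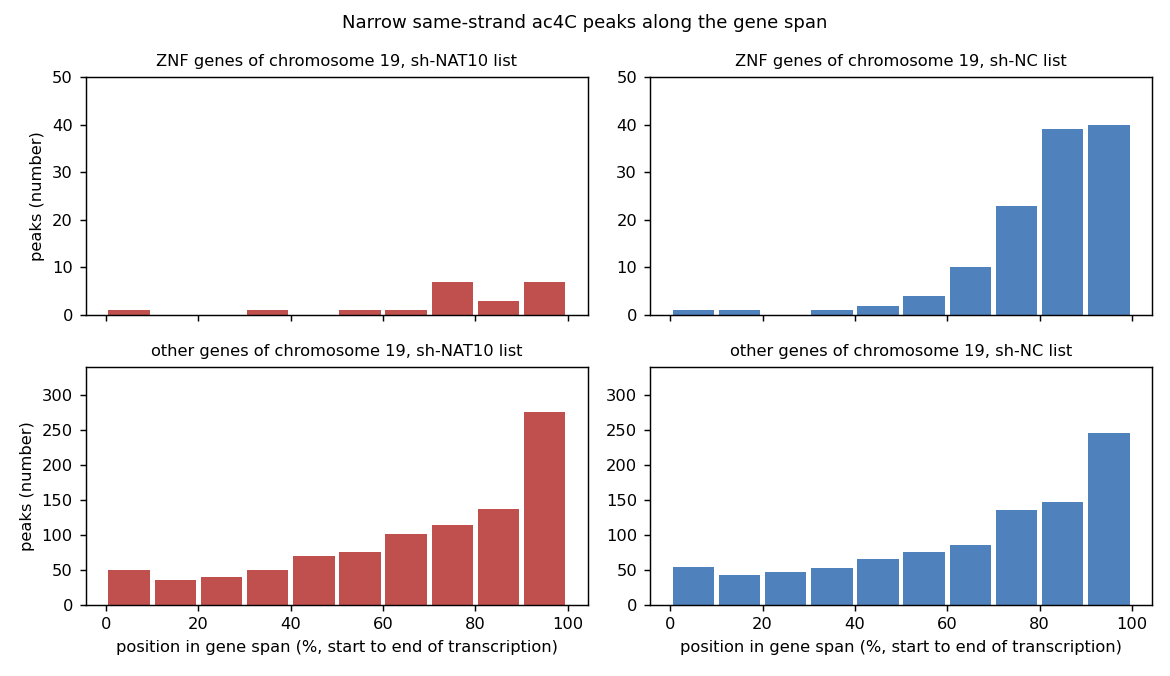
Number of peaks up to 1000 bp wide, on the strand of the gene and overlapping 1 gene only (y axis), by position in the gene span from start (0%) to end (100%) of transcription, for ZNF genes (top) and other genes of chromosome 19 (bottom), in the sh-NAT10 list (left) and the sh-NC list (right). On ZNF genes 102 of 121 sh-NC peaks and 17 of 21 sh-NAT10 peaks lie past 70%, and other genes show similar histograms in both lists.

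Control peaks on a ZNF gene were packed into a short stretch. Of the narrow same-strand peaks, 2 or more fell on 4 genes in the knockdown list and on 30 genes in the control list. The stretch that held them had a median of 738 bp in the control list and was at most 2000 bp in 29 of the 30 genes, the exception being ZNF787 with 33569 bp. In the knockdown list it was at most 2000 bp in 2 of the 4 genes. On other genes of chromosome 19 it was at most 2000 bp in 52 of 210 genes in the knockdown list and in 45 of 203 in the control list, with more peaks per gene (946 peaks on 299 genes and 948 on 309) than on ZNF genes (21 on 14 and 121 on 73).

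Few control peaks on ZNF genes recurred at the same place. On the same strand, 34 of the 67 knockdown peaks met a peak of the other list (50.7%, 39.1 to 62.3), as did 32 of the 238 control peaks (13.4%, 9.69 to 18.4). The second share is limited by the smaller number of knockdown peaks, so it is not independent of the ratio of peak numbers. Over all protein-coding genes the shares of knockdown and control peaks were 54.9% and 45.3%, so the knockdown share of the ZNF genes was near that of all genes. On other genes of chromosome 19 the shares were 68.9% and 66.6%, and on ZNF genes of other chromosomes 48.5% and 28.8%. Among peaks up to 100 bp on chromosome 19 ZNF genes, 9 of 29 knockdown and 9 of 151 control peaks were shared. The 33 knockdown peaks without a counterpart had a median width of 50 bp and a median score of 10.81, and the 206 control peaks without one had 75 bp and 11.96. Scores of 20 or more were listed for 14 knockdown and 36 control peaks, of which 13 and 8 were shared. Peaks with identical ends in both lists numbered 21, and 16 of these were over 1000 bp wide. Spans over 1000 bp made up 37.3% of the knockdown and 19.3% of the control peaks on these genes. Scores are the authors' own, on a scale not given in the sources used here, and are compared only as listed.

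**Figure D5:**
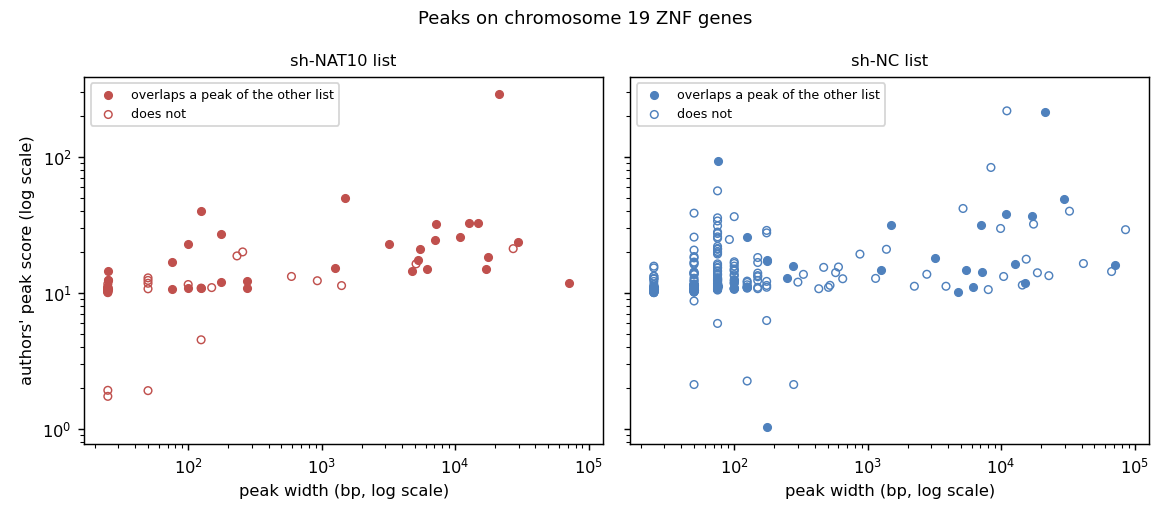
Width (x axis, bp, log scale) and the authors' score (y axis, log scale) of each peak on a chromosome 19 ZNF gene, in the sh-NAT10 list (left) and the sh-NC list (right). Filled points overlap a peak of the other list on the same strand, open points do not, and 6 sh-NAT10 and 12 sh-NC peaks with a score under 1 are not drawn; open points between 25 and 100 bp fill the sh-NC panel.

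Sequence of the peaks themselves could be read only where a peak covers the 300 base window around an annotated start of transcription (250 bases before to 50 after) in RefSeq's GRCh38.p14 table, which holds 219 of the 250 genes in 271 windows. Windows of 2 ZNF genes lay wholly inside a same-strand peak of both lists that overlaps 1 gene only. They are shown because they are stretches that stayed under a peak in both arms. The ZNF841 peak of 1494 bp, from 52094097 to 52095590, had a score of 50.17 in the knockdown list, the highest on any ZNF gene of chromosome 19 in a peak confined to 1 gene, and 31.28 in the control list. The ZNF160 span of 4737 bp, from 53086308 to 53091044, had 14.34 and 10.14. Below them stand the windows of ZNF709 and ZNF558, the genes without a knockdown peak that had most control peaks of their own, whose own peaks lie elsewhere in the gene. Each sequence is written from 5′ to 3′ on the gene strand, and capitals mark CCG, the triplet at which NAT10 acetylates the small ribosomal RNA.
ZNF841: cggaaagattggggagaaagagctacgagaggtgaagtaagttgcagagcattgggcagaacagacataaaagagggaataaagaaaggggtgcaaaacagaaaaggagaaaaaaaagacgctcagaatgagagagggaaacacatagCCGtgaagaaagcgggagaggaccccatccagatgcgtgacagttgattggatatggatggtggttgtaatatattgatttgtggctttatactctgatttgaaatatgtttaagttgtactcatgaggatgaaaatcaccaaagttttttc
ZNF160: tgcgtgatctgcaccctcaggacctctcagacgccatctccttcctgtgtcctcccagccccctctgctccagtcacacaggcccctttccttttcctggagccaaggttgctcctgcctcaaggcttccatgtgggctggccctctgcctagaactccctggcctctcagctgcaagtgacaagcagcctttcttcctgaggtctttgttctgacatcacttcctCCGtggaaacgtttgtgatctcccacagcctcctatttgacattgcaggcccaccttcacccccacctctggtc
ZNF709: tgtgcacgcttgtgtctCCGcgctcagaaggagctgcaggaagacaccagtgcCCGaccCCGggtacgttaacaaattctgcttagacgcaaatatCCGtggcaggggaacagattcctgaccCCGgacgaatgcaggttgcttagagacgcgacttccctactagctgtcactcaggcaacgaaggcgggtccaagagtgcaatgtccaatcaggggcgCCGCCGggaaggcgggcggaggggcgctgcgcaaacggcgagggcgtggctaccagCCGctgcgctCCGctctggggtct
ZNF558: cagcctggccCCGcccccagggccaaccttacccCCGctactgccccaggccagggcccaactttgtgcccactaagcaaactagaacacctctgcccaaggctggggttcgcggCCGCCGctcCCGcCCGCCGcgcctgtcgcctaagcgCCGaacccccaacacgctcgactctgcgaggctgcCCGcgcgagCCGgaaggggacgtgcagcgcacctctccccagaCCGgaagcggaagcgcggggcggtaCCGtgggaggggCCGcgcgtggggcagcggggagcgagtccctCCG

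The windows lie at chr19:52094222-52094521 (ZNF841), chr19:53086988-53087287 (ZNF160), chr19:12484767-12485066 (ZNF709) and chr19:8832255-8832554 (ZNF558), all on the minus strand. ZNF841, ZNF160 and ZNF558 have 2 windows each, of which 1 is shown, and ZNF709 has 1. The windows shown for ZNF841, ZNF160 and ZNF558 lie wholly inside the gene span, and that of ZNF709 lies at its outer start. CCG occurred 1 time in the ZNF841 and in the ZNF160 window, 9 times in that of ZNF709 and 14 times in that of ZNF558. These counts depend on the window shown and do not compare genes with and without a knockdown peak. Their GC content was 41%, 57.7%, 62.3% and 73.3%. Of all 271 ZNF windows, 98.2% held CCG on the gene strand, against 80.9% of the 35116 windows of all genes. Counting both strands, where the second strand reads CGG and can overlap the first in CCGG, the shares were 100% and 88.1%. The ZNF windows had a median GC content of 60%, against 58.7% over all genes. A match is a description of the letters only.

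Not all zinc finger genes of chromosome 19 encode a KRAB box. A list of 20 members known to lack it, written after the counts had been seen, had 21 knockdown and 25 control peaks, a ratio of 0.840 (0.474 to 1.49). The other 230 members had 46 and 213, a ratio of 0.216 (0.157 to 0.297). The list came from general knowledge and not from protein sequences, so the other 230 may also include genes without the box. A fuller list could therefore give other ratios for both groups. Of the list's 11 genes covered in the control list 4 lacked a knockdown peak (36.4%, 15.2 to 64.6). Of the 119 others 90 did (75.6%, 67.2 to 82.5), beside 26.3% over all protein-coding genes. ZNF865 had 2 peaks in each list, with both sites in common, and ZNF787 and ZNF428 are also on the list. ZNF580 and ZNF581, which overlap each other, had 0 knockdown peaks and the same 3 control peaks. ZNF536, ZNF574 and ZNF579 also had fewer knockdown than control peaks. In peaks that overlap 1 gene only the list had 10 knockdown and 15 control peaks, of which ZNF787 alone had 5 and 5. The difference between the lists was not tested, since the list was written with the values known.

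Other zinc finger genes of chromosome 19, with symbols that start with ZFP, ZSCAN, ZIM, ZIK or ZBTB, and PEG3, numbered 19 and had 10 knockdown and 25 control peaks. The imprinted gene PEG3 and ZIM2, which overlap, had 0 knockdown peaks and the same 8 control peaks. ZBTB7A, a transcription factor without a KRAB box, had 6 and 8. Of the 8 genes covered in the control list 5 lacked a knockdown peak (62.5%, 30.6 to 86.3), beside 26.3% over all protein-coding genes. None of the 3 genes with a knockdown peak lacked a control peak (interval 0 to 56.1%), beside 17.4% over all protein-coding genes. PEG3 and ZIM2 are both among the 5 genes, although they hold the same control peaks. In peaks that overlap 1 gene only, this group had 7 knockdown and 11 control peaks, a ratio of 0.636 (0.255 to 1.59). With these peaks 2 of 4 genes covered in the control list lacked a knockdown peak, beside 28.9% over all protein-coding genes.

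Genes of the silencing pathway through which KRAB proteins act, a list of 17, had 55 knockdown and 82 control peaks, a ratio of 0.671 (0.477 to 0.942). The ratio over all protein-coding genes, 0.823, lies within that interval. Of the 15 covered in the control list 3 lacked a knockdown peak (26.3% over all protein-coding genes), TASOR of the HUSH complex, the DNA methyltransferase DNMT3B and CHAF1B of the CAF-1 histone chaperone. None of the 12 genes with a knockdown peak lacked a control peak (interval 0 to 24.2%), beside 17.4% over all protein-coding genes. TRIM28, the corepressor itself, had 12 knockdown and 11 control peaks, and SETDB1, its histone methyltransferase partner, had 1 of each. CBX5, which binds methylated histone, had 1 and 4. CHAF1A, the large CAF-1 subunit, for which the labels also describe a targeted assay, had 5 and 13. CBX3 and MPHOSPH8 had no peak in either list. In peaks that overlap 1 gene only the 17 genes had 48 knockdown and 65 control peaks. That ratio was 0.738 (0.510 to 1.07), an interval that includes equal numbers.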

How the data were processed

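The values are 2 peak lists from an ac4C immunoprecipitation of RBE cells, 1 for each arm. The authors worked on hg38 with Bowtie2 2.4.1 and fastp 0.20.1, per the submitters' processing notes. It is unknown here how peaks were called and at which threshold, what the inputs served for, and whether replicates were pooled, since the labels and headers do not say. Each deposited peak carries a score of the authors', taken here for ranks, filters and description. The same thresholds were applied to both lists and scores of both are printed side by side, although it is unknown whether the lists share a scale. A score of 0 or infinity occurs.

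Peaks were assigned to RefSeq gene spans of GRCh38.p14 by coordinates, with at least 1 bp of overlap on either strand. Peaks were called shared with at least 1 bp of overlap on the same strand. Gene strand came from RefSeq's table of start sites. The members and lists were chosen with earlier results of these data known. The genes named are, by rule, the member with most peaks in each cluster, the 10 largest differences in each direction (8 existed for more knockdown peaks), the 5 highest scores in each list, and 12 members known for a role. Named outside the rule, after values were seen, were ZNF160 (for its sequence), ZNF865, ZNF574, ZNF579, ZNF580 and ZNF581 (list without a KRAB box), ZNF433 and ZNF493; ZNF345, ZNF559-ZNF177 and the first and last genes of clusters are named for position only. With 1 list per arm no test was run. The overlap procedure was tested on simulated data. Python 3.11.15, NumPy 2.4.6, pandas 2.3.3, SciPy 1.17.1 and matplotlib 3.10.9 were used. Alternatives covered overlap, score, list length, merging, width, gene assignment, strand and the gap between clusters.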

Additional observations from a re-analysis of the deposited data

How the results depend on the processing

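No paired analysis was possible because each arm has 1 list and the replicates are not separate. Of 52 recomputed values 37 stayed within the interval of the reported value, or for the cluster count within 1.5 times of it. A reversal was defined only for the ratio of knockdown to control peaks, and the knockdown list had fewer peaks in every setting. With peaks of score 20 or more, 80% of genes covered in the control list lacked a knockdown peak (47.2% over all protein-coding genes), 41.7% of those covered in the knockdown list lacked a control peak (47.7% over all), and the ratio of knockdown to control peaks was 0.389 (1.04 over all). With lists of equal length, 30.2% of genes covered in the knockdown list lacked a control peak (24.2% over all). With peaks up to 1000 bp, 82.1% of genes covered in the control list lacked a knockdown peak (31.9% over all), and 35.7% of knockdown and 7.81% of control peaks were shared. With peaks that overlap 1 gene only, 37.8% of knockdown and 8.97% of control peaks were shared. Other settings were added after seeing the data. With peaks wider than 100 bp the ratio was 0.437 (0.788 over all) and 24.1% of control peaks were shared. With peaks up to 1000 bp that overlap 1 gene only, 85.7% of genes covered in the control list lacked a knockdown peak (33.4% over all), the ratio was 0.193 (0.797 over all), and 29.6% of knockdown and 5.71% of control peaks were shared. The cause of these shifts was not tested, and shared peaks over all protein-coding genes were not counted under these settings. A gap of 500 kb gave 20 clusters, 14 with fewer knockdown peaks and 1 with more. Depth, RNA level and the spread between replicates are not known from the lists, and paralogs may share reads.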

Other observations

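Some ZNF genes of chromosome 19 had peaks with scores under the lower edge of 10, noticed after the values were seen. Such scores were listed for 10 of the 67 knockdown peaks and 19 of the 238 control peaks, of which 3 and 2 were shared. ZNF493, in the cluster from ZNF101 to ZNF254, had 2 knockdown peaks with scores of 1.90 and 1.73 and 2 control peaks with scores of 5.95 and 6.25, all narrow, on the strand of the gene and at different places. A score of 0 was listed for 4 knockdown and 10 control peaks on these genes.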
